A study of Drosophila melanogaster with 30 samples.

Results

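The regions described here are the centromere-proximal ends of the assembled arms 2L, 3L, 3R and X of *Drosophila melanogaster*, in dm3 coordinates. They are defined by position and were chosen with earlier results of these data known. On 2L, 3L and X they comprise all 300-bp bins that start above 20000000, 21500000 and 20500000, in that order. On 3R, whose numbering begins at the centromere, they comprise all bins that start at most at 1500000. Up to the last listed bin of each arm these ends hold 31283 of the 464488 bins spanned by the series, namely 10025 on 2L, 9874 on 3L, 5000 on 3R and 6384 on X. MNase-titration-seq was carried out in *Drosophila* S2 cells, a line cultured from embryos, and in stable S2 lines that overexpress tagged wild type PH (PH-WT) or the polymerization defective PH-ML, labelled PH-mut by the submitters, from an inducible metallothionein promoter. Both overexpression lines keep their own *ph-p* and *ph-d* genes, whether a line is 1 clone is not given in the sources used here, and the labels give all 3 lines the same growth medium and 0.5 mM CuSO4 for induction. Each line has 10 libraries, from 2 experiments with 5 amounts of MNase, and 30 libraries stand behind the lists in all. The deposited lists give bins that differ between 2 lines and name the line with the larger MNase accessibility (MACC), but no MACC score, read count or p-value. Total counts per library are therefore unknown here, both experiments are merged in each list, and no test across cell cultures was possible. A bin is said below to favor the line in which its MACC was the larger. All comparisons are counts of listed bins, which are not replicates of a line. The 95% Wilson intervals beside shares cover counting error only and treat neighboring bins as independent, which they are not.

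PH is a subunit of the Polycomb repressive complex PRC1, and its SAM domain joins PH molecules head to tail into polymers that hold distant chromatin sites together. The ML mutation breaks one face of that contact and acts in a dominant negative way. MACC is the slope with which released nucleosomal reads change over the logarithm of the MNase amount, so that a bin with a higher MACC gives up its nucleosomes more readily as digestion proceeds. The sequence next to the centromeres of *Drosophila* is packed as constitutive heterochromatin, with HP1 bound to methylated histone H3, few genes and many transposon copies, and it is better known as a domain of HP1 than of Polycomb. Toward the arm this chromatin gives way to gene-rich euchromatin over a transition zone. How much of each end, as bounded here, is heterochromatin was not determined. Only uniquely mapped reads entered MACC, so bins made only of repeats cannot enter a list. How many bins of the ends could be measured is not known, and densities below are per Mb of sequence, not per measurable bin.

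Bins listed in the pericentromeric ends were in most cases more accessible with PH-ML than with PH-WT. Of 517 bins listed between these lines, 342 favored PH-ML and 175 favored PH-WT, a share of 66.2% for PH-ML (95% Wilson interval 62.0% to 70.1%). In the rest of the same 4 arms 2247 bins favored PH-ML and 2255 favored PH-WT, or 49.9% (48.5% to 51.4%). In all, 559 different bins of the ends, or 1.79%, are on at least 1 list, against 1.66% in the rest of these arms. Relative to their own number of bins, the ends have 1.09% listed as favoring PH-ML, where the background over all bins of the series is 0.788%, and 0.559% listed as favoring PH-WT, where the background is 0.707%. In either direction together 1.65% of bins are listed, near the background of 1.49%. Pooled over the 4 ends, the number of listed bins was thus close to that elsewhere, and the balance between the directions was not. Neither holds for each end. The density relative to the rest of the arm was 1.42 on 2L, 1.63 on X, 0.949 on 3R and 0.669 on 3L. The 2L end alone gave 163 of the 342 bins favoring PH-ML over PH-WT. On 3R the share of 47.1% for PH-ML was near the 47.3% of the rest, and on 3L the intervals of end and rest overlap. The libraries of both lines also enter the comparisons against S2 given next, so the 3 results are not independent of each other. Of the 559 bins, 470 are on 1 list, 79 on 2 and 10 on all 3. This split was not counted outside the ends, so it is not given as a trait of them. The 559 bins carry 42, 99 and 517 calls in the 3 comparisons. Over the whole series 7543 different bins carry 810, 1417 and 6942.

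Between PH-WT and S2, most listed bins of the ends were less accessible with PH-WT. Of 99 bins, 89 favored S2 and 10 favored PH-WT, so that 10.1% (5.58% to 17.6%) favored PH-WT. In the rest of the arms this share was 28.8% (26.0% to 31.9%), from 262 of 909 bins. Bins favoring PH-WT made up 0.0320% of the ends against a background of 0.0721%, and bins favoring S2 made up 0.285% against 0.233%. Both directions together reached 0.316%, beside a background of 0.305%. Much of this contrast rests on X, since without the X arm the share was 15.3% (8.24% to 26.5%) in the ends and 25.2% (22.2% to 28.5%) in the rest, with intervals that overlap. In the ends of 2L, 3L and 3R the shares of 12%, 17.4% and 18.2% each have an interval that overlaps with that of the rest of the arm. With boundaries 500 kb farther from the centromere the share of the 4 ends was 19.0%.

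Few bins of the ends differed between PH-ML and S2. There were 42 such bins, of which 35 favored PH-ML and 7 favored S2. The share of 83.3% favoring PH-ML (69.4% to 91.7%) overlaps in its interval with the 74.8% (70.9% to 78.4%) of the rest of the arms. Bins favoring PH-ML made up 0.112% of the ends, below their background of 0.129%, and bins favoring S2 made up 0.0224%, below their background of 0.0452%. In either direction 0.134% of bins are listed, beside a background of 0.174%. Of the 7 bins favoring S2, 6 lie on 3L, and without the 3L arm 96.2% of the remaining bins favored PH-ML.

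**Figure D1:**
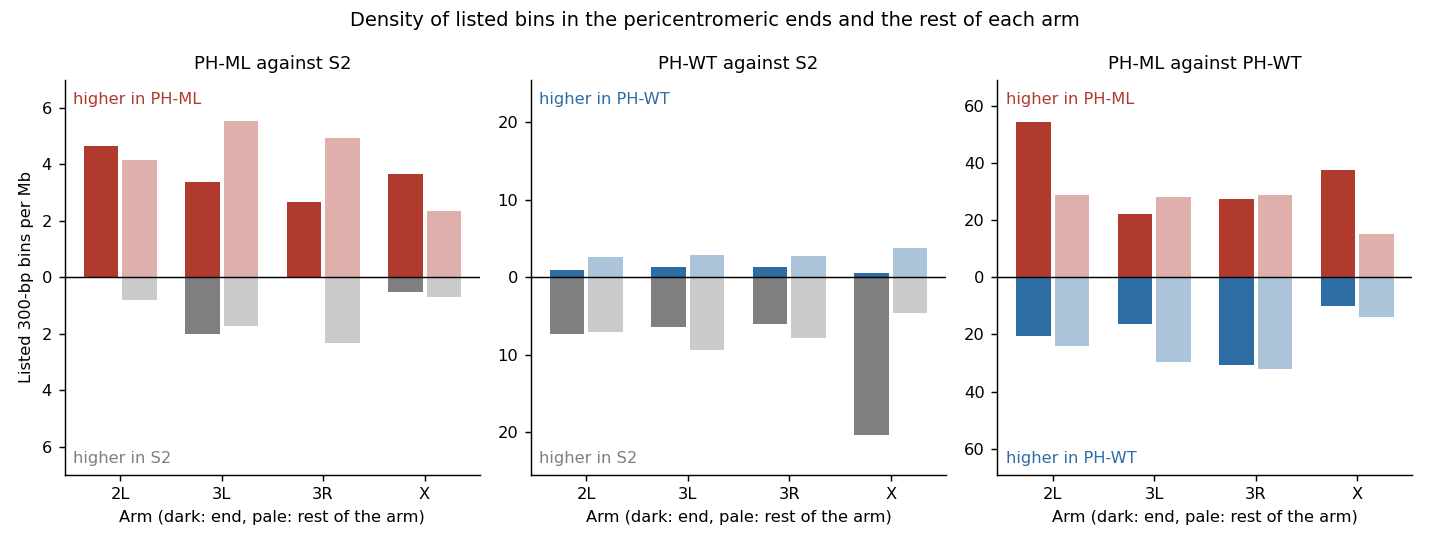
Bins listed per Mb of sequence in each pericentromeric end (dark bars) and in the rest of the same arm (pale bars), with the bins higher in the first line of a comparison drawn upward and those higher in the second line downward. The bars for PH-ML over PH-WT reach 54.2 per Mb in the 2L end and 37.6 per Mb in the X end, and the bar for S2 over PH-WT reaches 20.4 per Mb in the X end.

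The 4 ends did not share 1 pattern. For PH-ML against PH-WT the 2L end had 74.8 listed bins per Mb and the rest of 2L had 52.7, the X end had 47.5 and the rest of X had 29.2. The 3L end had fewer than its arm, with 38.5 against 57.5 per Mb, and the 3R end was close to its arm, with 58.0 against 61.1 per Mb. Over all 4 ends the density was 1.08 times that of the rest. This ratio was 0.908 without 2L and 0.992 without X, so its side of 1 rests on either of these arms. For PH-WT against S2 the ratio over the 4 ends was 1.03, and it was 0.727 without X. For PH-ML against S2 it was 0.779, with a counting interval of 0.569 to 1.07, and 1.07 when bins within 1 kb of each other were merged. In each comparison the ratio of the densities thus changed its side of 1 under at least 1 alternative.

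The 2L end carried the most bins, with 233 different bins on at least 1 list. Between PH-ML and PH-WT it holds 163 bins favoring PH-ML and 62 favoring PH-WT, a share of 72.4% (66.3% to 77.9%), where the rest of 2L has 54.5% (51.4% to 57.4%). The excess is spread along the end. In 11 of 12 windows of about 250 kb, counted from the centromere side, more bins favored PH-ML over PH-WT, whereas this was so in 36 of 80 such windows in the rest of 2L. The window between 0.25 and 0.5 Mb from the last listed position was the exception, with 2 bins favoring PH-ML and 5 favoring PH-WT. The fullest windows lie between 1.25 and 1.75 Mb, with 27 and 29 bins favoring PH-ML beside 9 and 11 favoring PH-WT. Without the fullest window the share of the 2L end was again 72.4%.

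Against S2, the 2L end holds 14 bins favoring PH-ML and 0 favoring S2, and in the other comparison 3 bins favoring PH-WT and 22 favoring S2. Listed bins made up 0.140% and 0.249% of the end in these 2 comparisons, against 0.148% and 0.289% of the rest of 2L. The share of 100% (78.5% to 100%) favoring PH-ML over S2 overlaps in its interval with the 83.8% (75.3% to 89.8%) of the rest. Few of the listed bins touch each other. All 14 bins favoring PH-ML over S2 are runs of a single bin, the innermost of which lies from 22356001 to 22356300. The longest run between PH-ML and PH-WT covers 4 bins from 21353701 to 21354900 (dm3), all favoring PH-ML, of which 1 also favors PH-ML over S2 and 1 is less accessible with PH-WT than in S2. The longest run against S2 is a pair of bins from 20277001 to 20277600 with lower MACC in PH-WT, and both of these favor PH-ML over PH-WT. When bins at most 10 kb apart were joined, the listed bins of the 2L end fell into 72 stretches. The fullest of them, from 21663601 to 21690300, had 11 of the 233 listed bins of the end, or 4.72%. Its bins are listed only between PH-ML and PH-WT, with 7 favoring PH-ML and 4 favoring PH-WT. The fullest 100 kb, from 21259201 to 21358200, hold 24 listed bins, 18 of them favoring PH-ML over PH-WT and 4 the reverse.

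**Figure D2:**
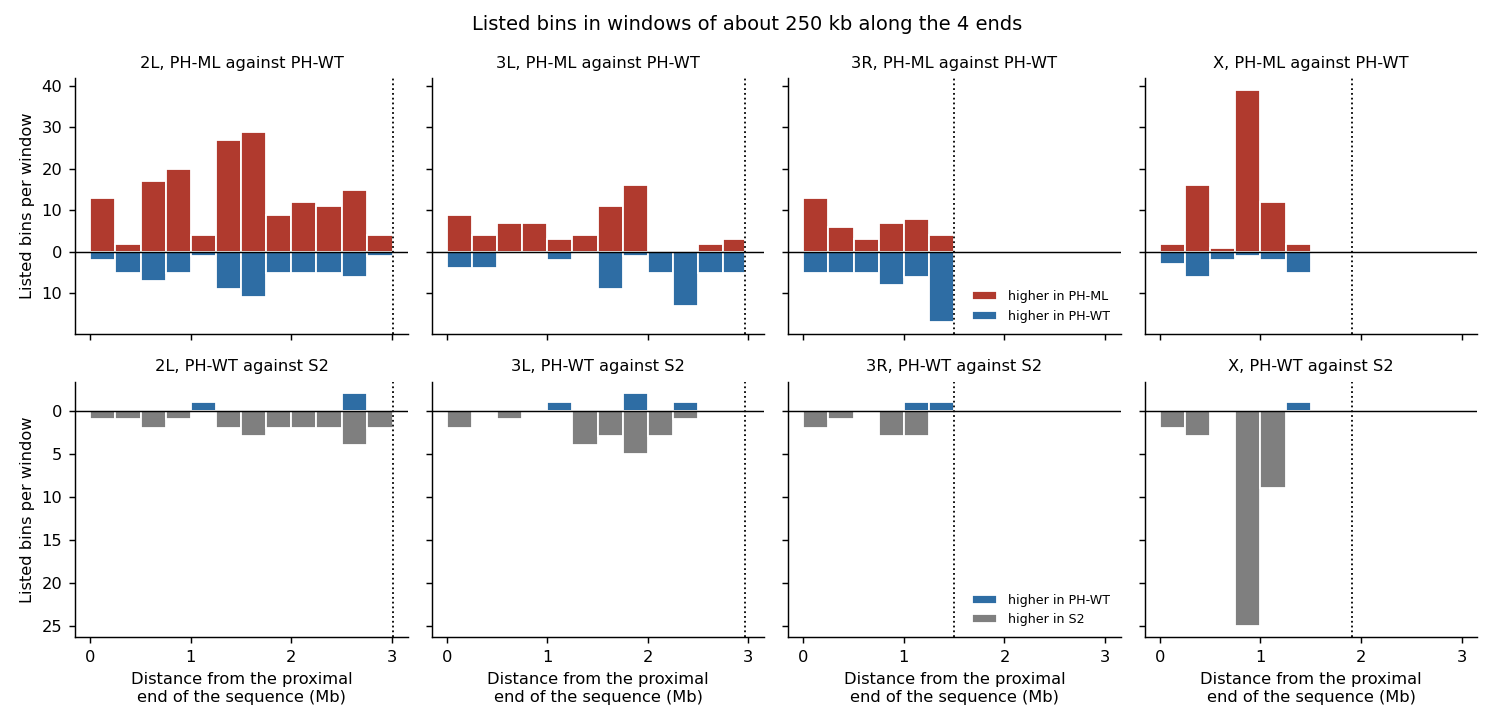
Listed bins per window of about 250 kb along each end, plotted by the distance in Mb from the centromere-proximal last listed position (on 3R, from its first base), with PH-ML against PH-WT in the upper row and PH-WT against S2 in the lower row; dotted lines mark the outer boundary of the end. Bars for PH-ML exceed those for PH-WT in 11 of 12 windows on 2L, and on X a single window holds 39 bins favoring PH-ML over PH-WT and 25 bins favoring S2 over PH-WT.

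The X end leaned toward PH-ML and away from PH-WT, and much of this comes from 1 place. Between PH-ML and PH-WT it has 72 bins favoring PH-ML and 19 favoring PH-WT, 79.1% (69.7% to 86.2%) against 51.8% (47.8% to 55.8%) in the rest of X. Between PH-WT and S2 it has 39 bins favoring S2 and 1 favoring PH-WT. The share favoring PH-WT is 2.50% (0.443% to 12.9%) in the X end and 44.4% (37.2% to 51.9%) in the rest of X, and the density of listed bins is 20.9 against 8.34 per Mb. Between PH-ML and S2, 7 bins favored PH-ML and 1 favored S2, and 0.125% of bins are listed against 0.0907% in the rest of X. The share of 87.5% (52.9% to 97.8%) favoring PH-ML overlaps in its interval with the 77.4% (65.6% to 86.0%) of the rest. The window between 0.75 and 1 Mb from the last listed position alone holds 39 of the 72 bins favoring PH-ML over PH-WT and 25 of the 39 favoring S2 over PH-WT. Without this window the density of the X end was 1.05 times that of the rest of X for PH-ML against PH-WT, in place of 1.63 times, and 1.08 times for PH-WT against S2, in place of 2.50 times. The lean of the directions was smaller but kept its side, with 64.7% (51.0% to 76.4%) favoring PH-ML over PH-WT and 6.67% (1.19% to 29.8%) favoring PH-WT over S2. The first interval overlaps with that of the rest of X, and the second lies below it. Over the whole X end, 3 of 8 windows of about 250 kb had more bins favoring PH-ML over PH-WT. Another 3 had more favoring PH-WT, and 2 had no listed bin in this comparison.

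The fullest window of the X end also holds the fullest stretch of the 4 ends, 16.8 kb from 21558901 to 21575700 on X (dm3). Of the 56 bins it spans, 29 are listed, 27.4% of all listed bins of the X end. PH-ML against PH-WT gives 22 bins favoring PH-ML and 1 favoring PH-WT there, PH-WT against S2 gives 14 bins favoring S2 and 0 favoring PH-WT, and PH-ML against S2 gives 4 bins favoring PH-ML and 0 favoring S2. Without this stretch the density of the X end was 1.23 times that of the rest of X for PH-ML against PH-WT and 1.64 times for PH-WT against S2. Inside it, the longest run covers 5 bins from 21565201 to 21566700, all favoring PH-ML over PH-WT. Of these, 3 are less accessible with PH-WT than in S2 and 1 favors PH-ML over S2. A run of 3 bins from 21466501 to 21467400, nearer to the arm, is less accessible with PH-WT than in S2 throughout, and 2 of its bins favor PH-ML over PH-WT. The longest run against S2 in PH-ML is a pair of bins from 21559201 to 21559800. The fullest 100 kb, from 21511501 to 21594000, hold 43 listed bins, with 34 favoring PH-ML over PH-WT, 1 the reverse and 20 less accessible with PH-WT than in S2. Of 44 runs of PH-ML over PH-WT in the X end, 28 are single bins, or 63.6% (48.9% to 76.2%), and in the rest of X 77.6% (71.8% to 82.6%) are, with intervals that overlap. The outer part of the X end is empty, since no list holds a bin between 20122801 and 20925000, a gap of 802.2 kb that crosses the boundary.

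The inner part of the 3L end leaned toward PH-ML, and only its windows beyond 2 Mb from the last listed position leaned toward PH-WT. Over the whole 3L end 66 bins favored PH-ML and 48 favored PH-WT, 57.9% (48.7% to 66.6%), and the interval reaches that of the rest of 3L, 48.5% (45.7% to 51.3%). In the inner 1.48 Mb there are 34 bins favoring PH-ML and 10 favoring PH-WT, in the outer 1.48 Mb there are 32 and 38. The outer 1.48 Mb thus come close to even, and they take in windows that lean toward PH-ML. The window between 1.5 and 1.75 Mb has 11 bins favoring PH-ML and 9 favoring PH-WT, and that between 1.75 and 2 Mb has 16 and 1. The change of side falls near 2 Mb from the last listed position, which was read from the windows and not set beforehand. The next window outward has 0 and 5, and the one between 2.25 and 2.5 Mb has 0 and 13. Those farther out have 2 and 5, and 3 and 5. Without the window between 1.75 and 2 Mb the share of the 3L end was 51.5%.

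The longest run of the 4 ends lies in the outer part of 3L, where 8 bins in a row from 22094401 to 22096800 (dm3) favor PH-WT over PH-ML. Of these 8 bins, 2 also favor S2 over PH-ML, and none is listed between PH-WT and S2. On the inner side, 4 bins from 23688001 to 23689200 favor PH-ML over both other lines, the longest run of PH-ML over S2 in the ends, with no difference listed between PH-WT and S2. A run of 3 bins from 22610701 to 22611600 is lower in PH-WT than in either other line, and 2 of its bins also favor PH-ML over S2. The fullest stretch, 7.2 kb from 22548901 to 22556100, has 11 listed bins, of which 10 favor PH-ML over PH-WT and 0 the reverse. The fullest 100 kb start at the same bin, reach 22616400 and hold 18 listed bins, 16 of which favor PH-ML over PH-WT and 0 the reverse. Against S2 the 3L end holds 10 bins favoring PH-ML and 6 favoring S2, and 4 bins favoring PH-WT and 19 favoring S2. Listed bins made up 0.162% and 0.233% of the end in these 2 comparisons, against 0.218% and 0.370% of the rest of 3L. The share of 62.5% (38.6% to 81.5%) favoring PH-ML over S2 overlaps in its interval with the 76.3% (69.0% to 82.3%) of the rest.

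The 3R end, which is the shortest at 1.5 Mb, did not lean toward PH-ML as a whole. It holds 41 bins favoring PH-ML and 46 favoring PH-WT, 47.1% (37.0% to 57.5%), beside 47.3% (44.9% to 49.7%) in the rest of 3R. Its innermost 250 kb hold 13 bins favoring PH-ML and 5 favoring PH-WT, and its outermost 250 kb hold 4 and 17. Without the outermost window 56.1% (44.1% to 67.4%) favored PH-ML. The fullest 100 kb, from 1403401 to 1498200, hold 18 listed bins, 3 of them favoring PH-ML and 15 favoring PH-WT. Of 2 runs that share the greatest length in the 3R end, the one nearer to the centromere covers 3 bins from 234301 to 235200, all favoring PH-ML over PH-WT and 1 of them less accessible with PH-WT than in S2. It opens the fullest stretch of the 3R end, 3.6 kb up to 237900 with 6 listed bins, all 6 favoring PH-ML over PH-WT. A pair of bins from 1133701 to 1134300 is lower in PH-WT than in either other line. A pair from 828601 to 829200 favors PH-ML over both other lines, and 1 of these bins is less accessible with PH-WT than in S2. Against S2 the 3R end has 4 bins favoring PH-ML and 0 favoring S2, and 2 bins favoring PH-WT and 9 favoring S2. Listed bins made up 0.0800% and 0.220% of the end in these 2 comparisons, against 0.217% and 0.318% of the rest of 3R. The share of 100% (51.0% to 100%) favoring PH-ML over S2 overlaps in its interval with the 68.1% (61.2% to 74.3%) of the rest.

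**Figure D3:**
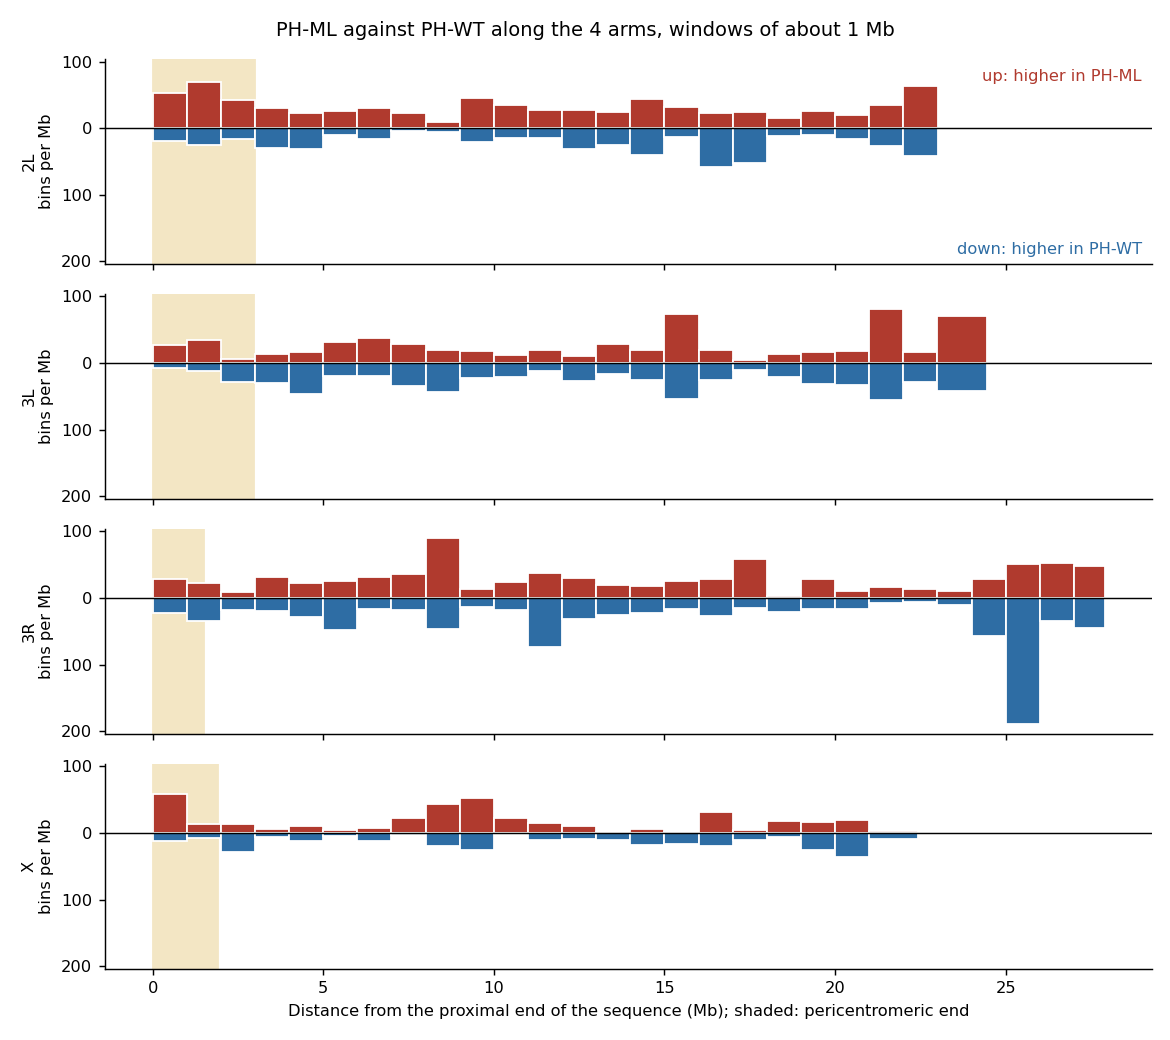
Bins per Mb listed between PH-ML and PH-WT in windows of about 1 Mb along the 4 arms, by distance in Mb from the centromere-proximal last listed position (on 3R, from its first base), with the pericentromeric ends shaded. On 2L the first 3 windows have 52, 69 and 42 bins favoring PH-ML beside 19, 26 and 17 favoring PH-WT; fuller windows of either direction lie far out on 3L and 3R.

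To see how far an end stands from the spread within its own arm, as many stretches of the length of the end as could be placed were laid outward from the boundary along the rest of each arm. This division was chosen after the counts had been seen. It leaves out the distal 1.96 Mb of 2L, 0.765 Mb of 3L, 0.905 Mb of 3R and 1.35 Mb of X, which are too short for another stretch. The 2L end had more bins listed between PH-ML and PH-WT than each of 6 such stretches, 225 against 87 to 196, and a higher share for PH-ML, 72.4% against 37.2% to 70.1%. It was not the densest part of 2L, since the distal part left out holds 167 such bins, or 85.4 per Mb against 74.8 per Mb in the end, with a share of 58.7% (51.1% to 65.9%). The share of the X end, 79.1%, was above all 10 stretches of X, which range from 20.6% to 75.5%, and its 91 bins were exceeded by 1 of them, with 106. Without its fullest 250-kb window, the X end had a share of 64.7%, below those of 2 stretches, at 66.7% and 75.5%. That window was picked from these data and leaned to PH-ML, and the stretches kept their own fullest windows. A lower rank was therefore partly built in. The share of the 3L end, 57.9%, was above all 7 stretches of 3L, which range from 31.4% to 52.8%, although its 114 bins were fewer than in 6 of the 7. Without its fullest window, and with the stretches again left whole, the share of 51.5% was inside that range. In the distal part of 3L left out, 90 of 132 bins, or 68.2% (59.8% to 75.5%), favored PH-ML, a higher share than in the end. The 3R end lay inside the range of its 17 stretches, 31.3% to 70.3%. For PH-WT against S2, the X end had a lower share for PH-WT than any of the 10 stretches of X, whose shares run from 7.69% to 73.5%, whereas the ends of 2L, 3L and 3R lay inside the range of their arms. Parts with a similar lean therefore also occur away from the centromere on 2L, 3L and X.

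**Figure D4:**
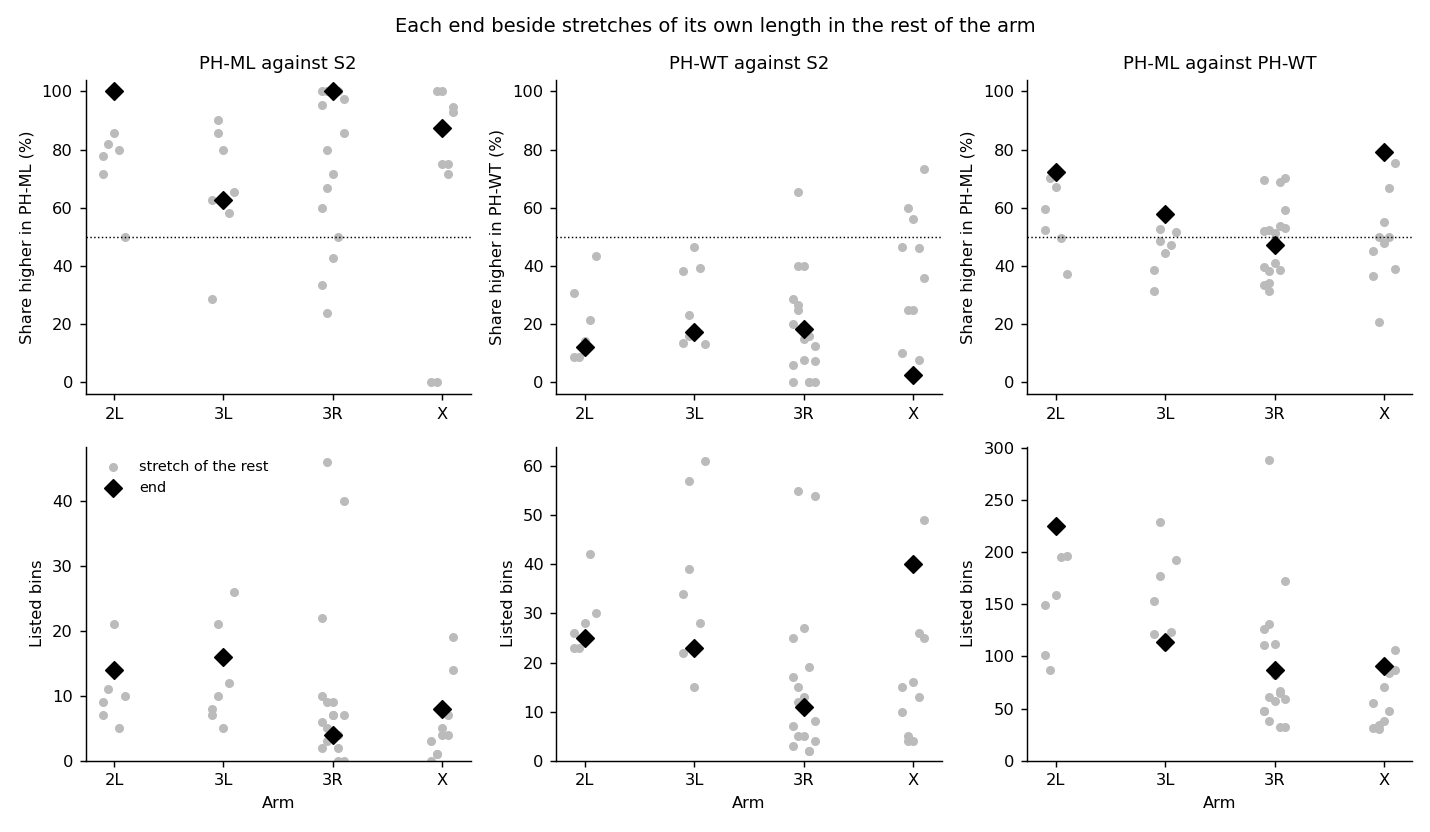
Each end (black diamonds) beside stretches of the same length in the rest of its arm (gray points; the distal part too short for another stretch is not drawn), with the share of listed bins higher in the first line (percent, upper row) and the number of listed bins (lower row) for the 3 comparisons. For PH-ML against PH-WT the diamonds of 2L, 3L and X lie above all gray points of their arm in share, and that of 3R lies among them.

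The boundaries of the ends are fixed positions. Directly inside them, the nearest listed bin was 64.9 kb away on 2L, 0.101 kb on 3L, 2.10 kb on 3R and 425.0 kb on X, in each case a bin favoring PH-WT over PH-ML. Directly outside, the nearest listed bin was 112.4 kb away on 2L, 23.0 kb on 3L, 30.9 kb on 3R and 377.5 kb on X. Between PH-ML and PH-WT, the first 500 kb inside the boundary hold 19 bins favoring PH-ML and 7 favoring PH-WT on 2L, and the 500 kb outside hold 5 and 10. On 3R the same counts are 12 and 23 inside and 10 and 11 outside, on 3L they are 5 and 10 inside and 9 and 20 outside, and on X they are 2 and 3 inside and 0 and 1 outside.

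The series also has heterochromatic scaffolds named after the same arms, 2LHet, 3LHet, 3RHet and XHet. How alike they are to the ends was not measured. Over the 4 scaffolds 133 bins favored PH-ML over PH-WT and 50 the reverse, 72.7% (65.8% to 78.6%), an interval that overlaps with that of the ends. A smaller part of the scaffold bins is listed, 1.00% against 1.65% in the ends and a background of 1.49%. Bins favoring PH-ML made up 0.729% of the scaffolds, below their background of 0.788%. Bins favoring PH-WT made up 0.274%, farther below their background of 0.707%. The share favoring PH-WT over S2 was 3.85% (1.06% to 13.0%), from 2 of 52 bins, and overlaps with that of the ends. The 52 bins made up 0.285% of the scaffolds, beside a background of 0.305%. Between PH-ML and S2, 0.142% of the scaffold bins are listed, beside a background of 0.174%. Of these, 20 favored PH-ML and 6 favored S2. This share of 76.9% (57.9% to 89.0%) also overlaps with that of the ends. By scaffold, 3RHet had 77 bins favoring PH-ML and 22 favoring PH-WT, a share of 77.8% (68.6% to 84.8%), whose interval lies above that of the 3R end. On 3LHet the numbers were 41 and 17, on 2LHet 11 and 4, and on XHet 4 and 7. No test of these differences was made, and no dm3 sequence or gene annotation was used here, so neither genes nor bases at the named runs are given.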

How the data were processed

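Per the labels and the paper's methods, the authors mapped paired-end MNase-seq reads to dm3 with Bowtie, kept uniquely mapped reads within set mismatch and insert limits, discarded positions with extreme tag numbers, and took MACC per 300-bp bin as the GC-corrected slope of library-size-scaled read frequencies over the titration. The deposited lists hold the bins called different between 2 lines; the test and threshold of the calls are not given in the sources used here. The lowest MNase amount is 1.65 in the labels and 1.5 U in the series text. All other amounts are the same in both.

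The direction was read from column 6 of the 3 lists with both directions, with Python 3.11.15 and scipy 1.17.1. The 5 lists of 1 direction hold the same bins for their direction. Bins were counted per end, per window of about 250 kb or 1 Mb, and per run of touching bins with the same direction. Lengths run to the last listed bin of an arm, and the background is the share of all spanned bins that is listed. Named regions are the longest run per end and comparison (ties resolved toward the centromere), the fullest stretch and the fullest 100 kb per end, and the listed bins next to a boundary. Counting and merging were tested on simulated data. The ends, lists and rules were chosen with earlier results of these data known. Alternatives were merging bins into runs or within 1 kb, moving the boundaries by 500 kb, leaving out each arm, other arm lengths, and, added after the data were seen, leaving out the fullest stretch of 3L or X. The values without a fullest window were also added then. Gene positions were not used, because the gene table used here is of another genome release.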

Additional observations from a re-analysis of the deposited data

How the results depend on the processing

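Of 138 recomputed values, 6 ratios of densities changed their side of 1. Another 15 values left the counting interval of the value reported or, for counts, differed from it by over 1.5 times. The 138 include values with the direction read from the lists of 1 direction. These lists hold the same bins, so those values could not differ. No paired analysis was possible because the lists pool both experiments. When an arm was left out with its end, the values that moved were, without 2L, 21 bins favoring PH-ML over S2, 179 favoring PH-ML over PH-WT, 113 favoring PH-WT over PH-ML and 61.3% favoring PH-ML over PH-WT; without 3L, 1 bin favoring S2 over PH-ML, 96.2% favoring PH-ML over S2 and 6 bins favoring PH-WT over S2; and without X, 50 bins favoring S2 over PH-WT, where the share favoring PH-WT was 15.3%. The density of PH-ML against PH-WT in the ends over that in the rest was 0.908 without 2L, 1.29 without 3L and 0.992 without X, and that of PH-WT against S2 was 0.727 without X and 0.882 without the fullest stretch of the X end. Boundaries 500 kb farther from the centromere gave 11 bins favoring S2 over PH-ML, 23 bins or 19.0% favoring PH-WT over S2, and a density ratio of 0.997 for PH-ML against PH-WT, and boundaries 500 kb nearer gave 5 bins favoring PH-WT over S2. Merging within 1 kb gave 196 regions and 59.0% favoring PH-ML over PH-WT, and a density ratio of 1.07 for PH-ML against S2. The share favoring PH-ML over PH-WT was between 59.0% and 70.0% under these alternatives, all of which pool the ends of several arms. With 1 arm left out it was between 61.3% and 70.0% in the ends and between 48.5% and 51.4% in the rest of the arms. With touching bins merged into runs, 1626 runs favored PH-ML and 1734 favored PH-WT in the rest. The share in the rest under the other alternatives is not given here. The 3R end alone had 47.1%. The cause of the shifts between alternatives was not tested. The missing read depth limits all results, since it is not known which bins could be measured.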
